A study of Drosophila melanogaster with 6 samples.

Results

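The peaks described here are those of CrebA-GFP expressed under sage-Gal4, taken as the complete peak list that the authors called for the anti-GFP immunoprecipitate of these embryos against their input. The list holds 7916 peaks, of 28419 in the 3 peak lists of the series. The embryos carried sage-GAL4 together with UAS-CrebA-GFP, that is, CrebA tagged with GFP at its C terminus and made wherever the driver is active. They were Drosophila melanogaster embryos of stages 11 to 16, from collections of 8 h that were left to age a further 11 h before fixation with formaldehyde at 1.8%. Both other immunoprecipitates are used only for comparison, by peak positions and counts and by fold and rank within each list. They are an anti-GFP library from fkh-GAL4 and UAS-CrebA-GFP embryos (6464 peaks), and a library made with an antiserum to CrebA from wild-type Oregon R embryos (14039 peaks). Each of the 3 has an input library from embryos of the same genotype, which enters only through the authors' calls. Per the series description, sage-Gal4 is active in several tissues, of which the salivary gland is the one it shares with fkh-Gal4, so the sage-Gal4 list alone does not tell the tissues apart. The driver determines where and how much CrebA-GFP is made, and the antibody to GFP does not see untagged CrebA. Chromatin came from 2 collections of embryos, and the labels do not say whether these were pooled. There is 1 library per group, so no value below has a replicate check.

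CrebA is a bZIP transcription factor of the CREB3 family that in flies is required for high expression of secretory pathway genes, above all in the salivary gland. Secretory proteins enter the endoplasmic reticulum (ER) through the signal recognition particle and the translocon, are folded and glycosylated there, leave in COPII vesicles, and are retrieved or sorted by COPI vesicles and Golgi tethers. The embryonic salivary gland is a pair of epithelial tubes devoted to secretion, and sage encodes a bHLH factor made in it.

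Coordinates are on dm6 and are 1-based. Fold enrichment is the authors' value for each peak at its summit, over the caller's local background, and is used here to rank and describe peaks within a list. Read depth is unknown from peak lists. In the sage-Gal4 list the median fold was 1.85, with a range of 1.34 to 3.76, and 2793 peaks (35.3%) had a fold of at least 2. A fold of at least 3 was reached by 85 peaks. Widths ran from 147 to 7418 bp, with a median of 402 bp and an interquartile range of 240 to 715 bp, and 201 peaks were at least 2000 bp wide. The shortest width, 147 bp, was the same in all 3 lists. Higher peaks were also wider across the list (Spearman's rho = 0.69 over 7916 peaks, a description of 1 library). For the 1564 peaks whose −log10 q reached 10, that rho was 0.14.

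**Figure D1:**
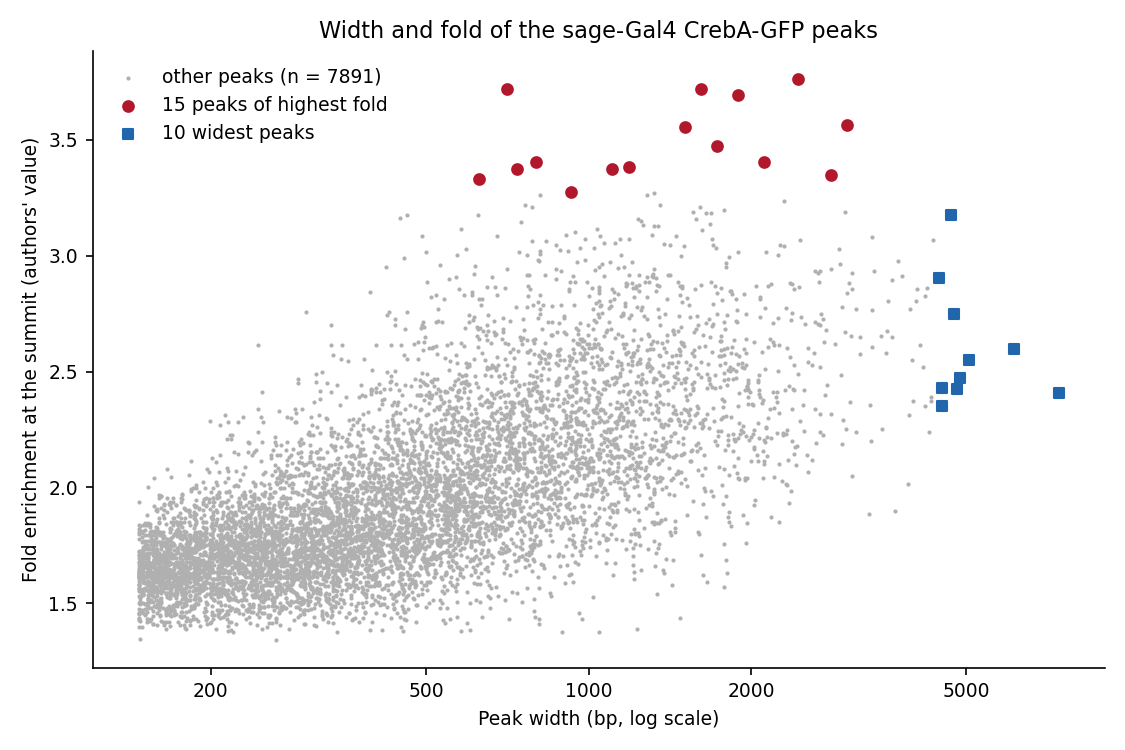
Width (bp, log scale) against the authors' fold enrichment at the summit for the sage-Gal4 peaks, each point 1 peak. The 15 peaks of highest fold (red) had widths of 626 to 3003 bp, and the 10 widest peaks (blue, 4446 to 7418 bp) had folds of 2.35 to 3.17, so the strongest and the widest peaks were separate sets.

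The strongest sage-Gal4 peak lay beside brk, which encodes a transcriptional repressor of Dpp target genes. It covered X from 7305930 to 7308368, with a fold of 3.76 and its summit 1119 bp from the nearest end of brk, and stood inside the annotated span of CG1677, a gene of 125 kb that encloses this stretch. A second peak in CG1677, X from 7299307 to 7302117, ranked 13 with a fold of 3.35 and lay 7840 bp from brk. Both overlapped peaks of the other lists, the first at rank 13 of the fkh-Gal4 list and rank 452 of the Oregon R list.

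Next came 3R from 18628109 to 18628814, with a fold of 3.72, inside qin, a gene of the piRNA pathway, and 496 bp from an end of CG14301. The same fold was given to X from 19152821 to 19154433, inside RhoGAP18B, a GTPase activating protein gene, and 13450 bp from its nearest end. The fourth peak, X from 2702918 to 2704810, had a fold of 3.69 and its summit 29 bp from an end of Ugalt. Ugalt encodes the Golgi transporter of UDP-galactose, and the neighbouring eIF2Bbeta, a subunit of the exchange factor for translation initiation factor eIF2, ended 690 bp from the same summit. The fifth peak, X from 13639433 to 13642435 (fold 3.56), lay inside NFAT, a transcription factor gene, 17212 bp from its nearest end.

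CrebB, which encodes another bZIP factor of the CREB family, had the sixth peak, X from 18365922 to 18367432, at a fold of 3.55 and 57 bp from a gene end. The seventh, X from 934887 to 936615, was 114 bp from an end of TRAM, a translocon partner gene, with a fold of 3.47. Its fkh-Gal4 counterpart was the first of that list, and its Oregon R counterpart was number 295. The eighth, X from 1860313 to 1862422, lay 79 bp from deltaCOP, a COPI coat subunit gene, and 298 bp from Gcna (fold 3.404).

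A pair of strong peaks stood in genes of MAP kinase and AP-1 signalling. The first was inside Raf, the kinase above MEK, at X from 2317392 to 2318191 (fold 3.403), and its overlapping peaks ranked 763 for fkh-Gal4 and 2276 for Oregon R. The second was inside kay, the Fos gene, at 3R from 29772696 to 29773883 (fold 3.38), with ranks of 372 and 4042. Both were thus far lower in those rankings than in the sage-Gal4 list, although ranks in lists of different lengths are not levels.

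The other 4 of the 15 strongest peaks had folds of 3.27 to 3.38. A peak at X from 8714021 to 8715123 had its summit inside CG2004, 457 bp from an end of that gene and 469 bp from an end of CG1785. On 2L, a peak from 13059882 to 13060619 was 71 bp from CG9932 and overlapped only a modest fkh-Gal4 peak (fold 1.87, rank 2185) but a strong Oregon R peak (fold 3.36, rank 136). A peak on 2L from 8852111 to 8852736 lay outside any protein-coding gene, 10340 bp from CG32986, with an Oregon R counterpart at rank 8433. The last, in jbug, a filamin-type gene, at 2R from 22728726 to 22729651, had ranks of 5 and 38 in the fkh-Gal4 and Oregon R lists.

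Of these 15 peaks 7 had their summit within 1000 bp of a protein-coding gene end, 7 lay deeper inside a gene and 1 lay between genes. Each of the 15 overlapped a peak of both other lists. On X lay 10 of them, while X held 17.9% of the peaks on the chromosome arms. The 4 highest peaks share the same −log10 q of 30.3, so a ranking by q does not separate them.

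The X chromosome held many of the highest sage-Gal4 peaks. Its median fold was 1.92, against 1.83 to 1.85 on 2L, 2R, 3L and 3R, and 37 of the 100 highest peaks lay there. The median folds of X were also the highest among the large chromosome arms for fkh-Gal4 (1.79 against 1.73 to 1.74) and for Oregon R (2.03 against 1.84 to 1.87). On chromosome 4 there were 28 peaks, with a median fold of 1.70 and the highest, 2.22, 121 bp from zfh2, a zinc finger homeobox gene. The best peak of 3L, at rank 22, lay inside GAPcenA (3L from 8346579 to 8348188, fold 3.21), and its Oregon R counterpart had a fold of 1.75 and rank 8624. The Y chromosome held 5 peaks, the best with a fold of 2.28 and 153416 bp from Ppr-Y.

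The widest peaks were mostly inside genes. The widest, 7418 bp on 2L from 2196248 to 2203665, had its summit near 1 edge, 1207 bp from an end of COX7AL2, a gene related to a subunit of cytochrome oxidase, with a fold of 2.41. The second, 6123 bp on 2L from 15908029 to 15914151, lay inside beat-Ib, a gene of the Beat family of cell adhesion proteins (fold 2.60). The third, 5070 bp, was 684 bp from Rh5, a rhodopsin gene, on 2L from 12002891 to 12007960.

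Among the other 7 of the 10 widest peaks, 4755 bp of Eip75B, a nuclear receptor gene induced by ecdysone, carried a fold of 2.75. Inside Raf a second peak, X from 2299925 to 2304614, was 4690 bp wide with a fold of 3.17. Inside Egfr, which encodes the EGF receptor, a peak of 4511 bp had a fold of 2.43. CHES-1-like, a forkhead family gene, held a peak of 4871 bp. A peak of 4813 bp lay 9 bp from Su(Tpl), the fly ELL elongation factor gene, and within 1000 bp of ends of Mi-2, a chromatin remodeller, and Prp3, a splicing factor. The last 2, of 4506 and 4446 bp, were 94 bp from trbl, a pseudokinase gene that restrains cell division, and inside MFS14. All 10 overlapped peaks of both other lists, and 7 of them had their summit inside a gene, more than 1000 bp from an end.

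Of all sage-Gal4 summits, 4404 (55.6%, exact Clopper-Pearson 95% interval 54.5 to 56.7%) lay within 1000 bp of an end of a protein-coding gene. A further 2917 (36.8%) lay deeper inside a gene, 582 (7.35%) between genes, and 13 outside the chromosome arms. The median distance to the nearest gene end was 664 bp, with 18.0% of summits on the arms within 100 bp and 11.96% beyond 10000 bp. The gene table gives no strand, so a gene's start and its 3′ end were not told apart. Median fold hardly differed between these places, at 1.85, 1.85 and 1.84.

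Overlap with the other lists did differ with place. Of the summits at gene ends, 94.96% belonged to a peak that overlapped an Oregon R peak, compared with 73.0% inside genes and 71.0% between genes. For fkh-Gal4 the order was another one, at 61.6%, 67.2% and 59.3%. The Oregon R list is the longest and had a summit within 1000 bp of 62.4% of protein-coding genes, against 28.4% for fkh-Gal4. Over the whole sage-Gal4 list 63.4% of peaks overlapped an fkh-Gal4 peak, 85.01% an Oregon R peak, 55.4% both and 7.04% neither, counting an overlap of 1 bp or more. With a reciprocal overlap of 50% the shares were 37.9% for fkh-Gal4 and 34.6% for Oregon R, so their order turned. With summits within 150 bp of each other the order was kept, at 44.5% for fkh-Gal4 and 47.7% for Oregon R.

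Secretory pathway genes were concentrated among the highest sage-Gal4 peaks. In the highest decile of fold (2.45 to 3.76), 61 of 792 peaks (7.70%) had a summit within 1000 bp of an end of a gene in the secretory lists described below. In the other 9 deciles the share was between 1.39% and 3.16%. Ribosomal protein genes showed no such order, with 1.64% in the highest decile, 2.15% in the fourth and 2.27% in the lowest. The X chromosome held 29.4% of the highest decile and 9.22% of the lowest. Overlap with fkh-Gal4 peaks fell from 96.8% of the highest decile to 40.4% of the ninth, while overlap with Oregon R peaks was lowest in the eighth, at 75.98%, and 85.1% in the lowest. The median width went from 1093 bp to 232 bp between the highest and the lowest decile.

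**Figure D2:**
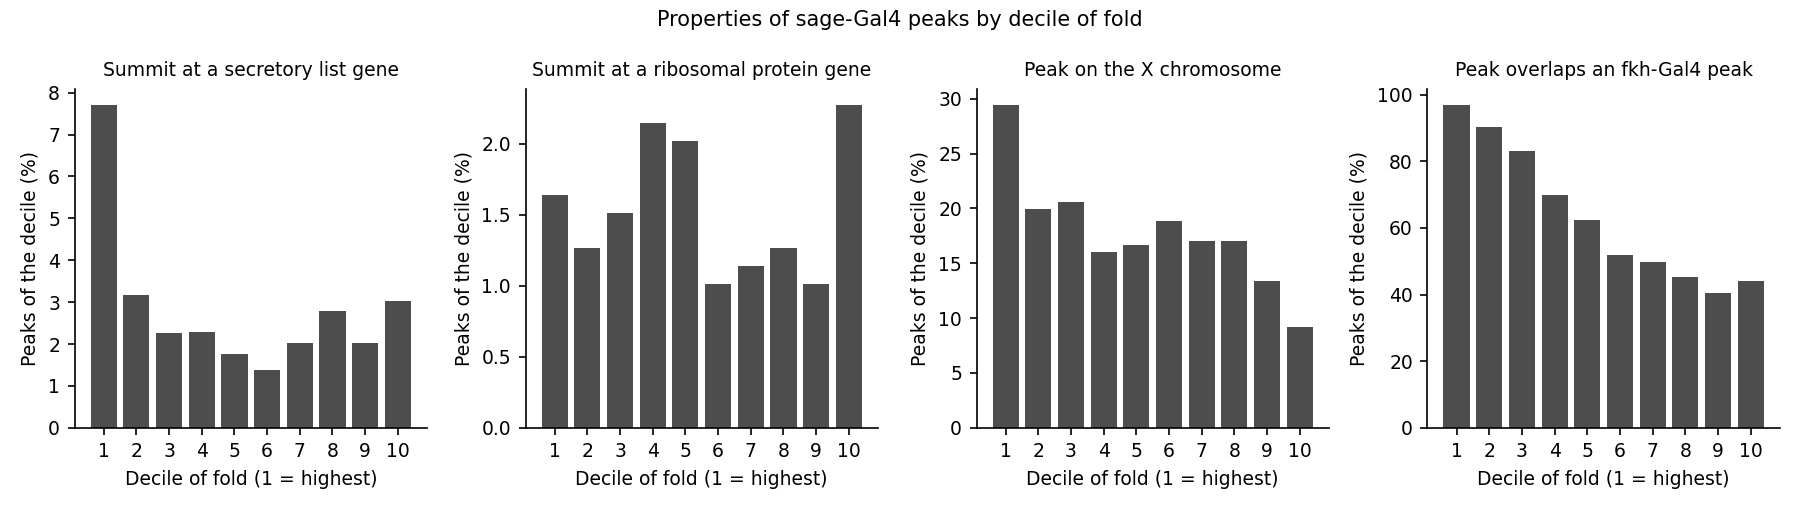
Share (%) of sage-Gal4 peaks in each decile of fold, decile 1 being the highest, that have a summit at a secretory list gene, have one at a cytosolic ribosomal protein gene, lie on X, or overlap an fkh-Gal4 peak. The first panel drops from 7.70% to 3.16% between the first 2 deciles and the last panel declines from 96.8% to 44.2%, while the ribosomal panel has no order.

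Of the 12 genes with most sage-Gal4 peaks, 5 belong to a list of the response to the steroid hormone ecdysone. That list holds 11 of the 13946 protein-coding genes and was chosen with earlier results of these data known. The 5 have spans of 50.7 to 113.7 kb. Peaks were counted per gene when the summit lay in the gene's span or within 1000 bp of it. By this rule 5779 of 13946 protein-coding genes (41.4%) had a peak, 2588 had at least 2, 311 at least 5 and 57 at least 10. Genes with at least 10 peaks had a median length of 45.9 kb, against 2.16 kb for all genes. The 670 genes over 30 kb had 0.42 peaks per 10 kb together, against 0.89 for all genes, and 211 of the 670 had none.

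At the head stood ftz-f1, a nuclear receptor gene of the ecdysone cascade, with 29 peaks over 50.7 kb, or 5.50 per 10 kb. The same gene had 25 fkh-Gal4 and 16 Oregon R peaks. Its highest sage-Gal4 fold was 3.09. Next was bun, of the TSC-22 family, with 27 peaks (23 fkh-Gal4, 29 Oregon R). Eip75B had 26 (19 and 36), EcR, the ecdysone receptor gene, 25 (12 and 27), and Hr4, another nuclear receptor gene, 21 (20 and 24). Eip74EF, the Ets factor gene of the early ecdysone puffs, had 18 peaks (23 and 17), with folds up to 3.09.

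Another 6 genes complete the 12. tara, a cell cycle and chromatin regulator gene, had 22 peaks over 34.7 kb, and mam, the Notch coactivator gene, had 20. Pdp1, a bZIP factor gene of the circadian clock, had 19 sage-Gal4 peaks, 5 fkh-Gal4 peaks and 15 Oregon R peaks. Of its sage-Gal4 peaks 9 form a run that overlaps no peak of the other lists, and without that run Pdp1 had 10 peaks and stood at place 56 among all genes. tna, a trithorax group gene, cv-c, a RhoGAP gene of tubular organs, and CG1677 had 18 each. When genes were ranked by peaks per 10 kb, none of the 12 was among the first 12.

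**Figure D3:**
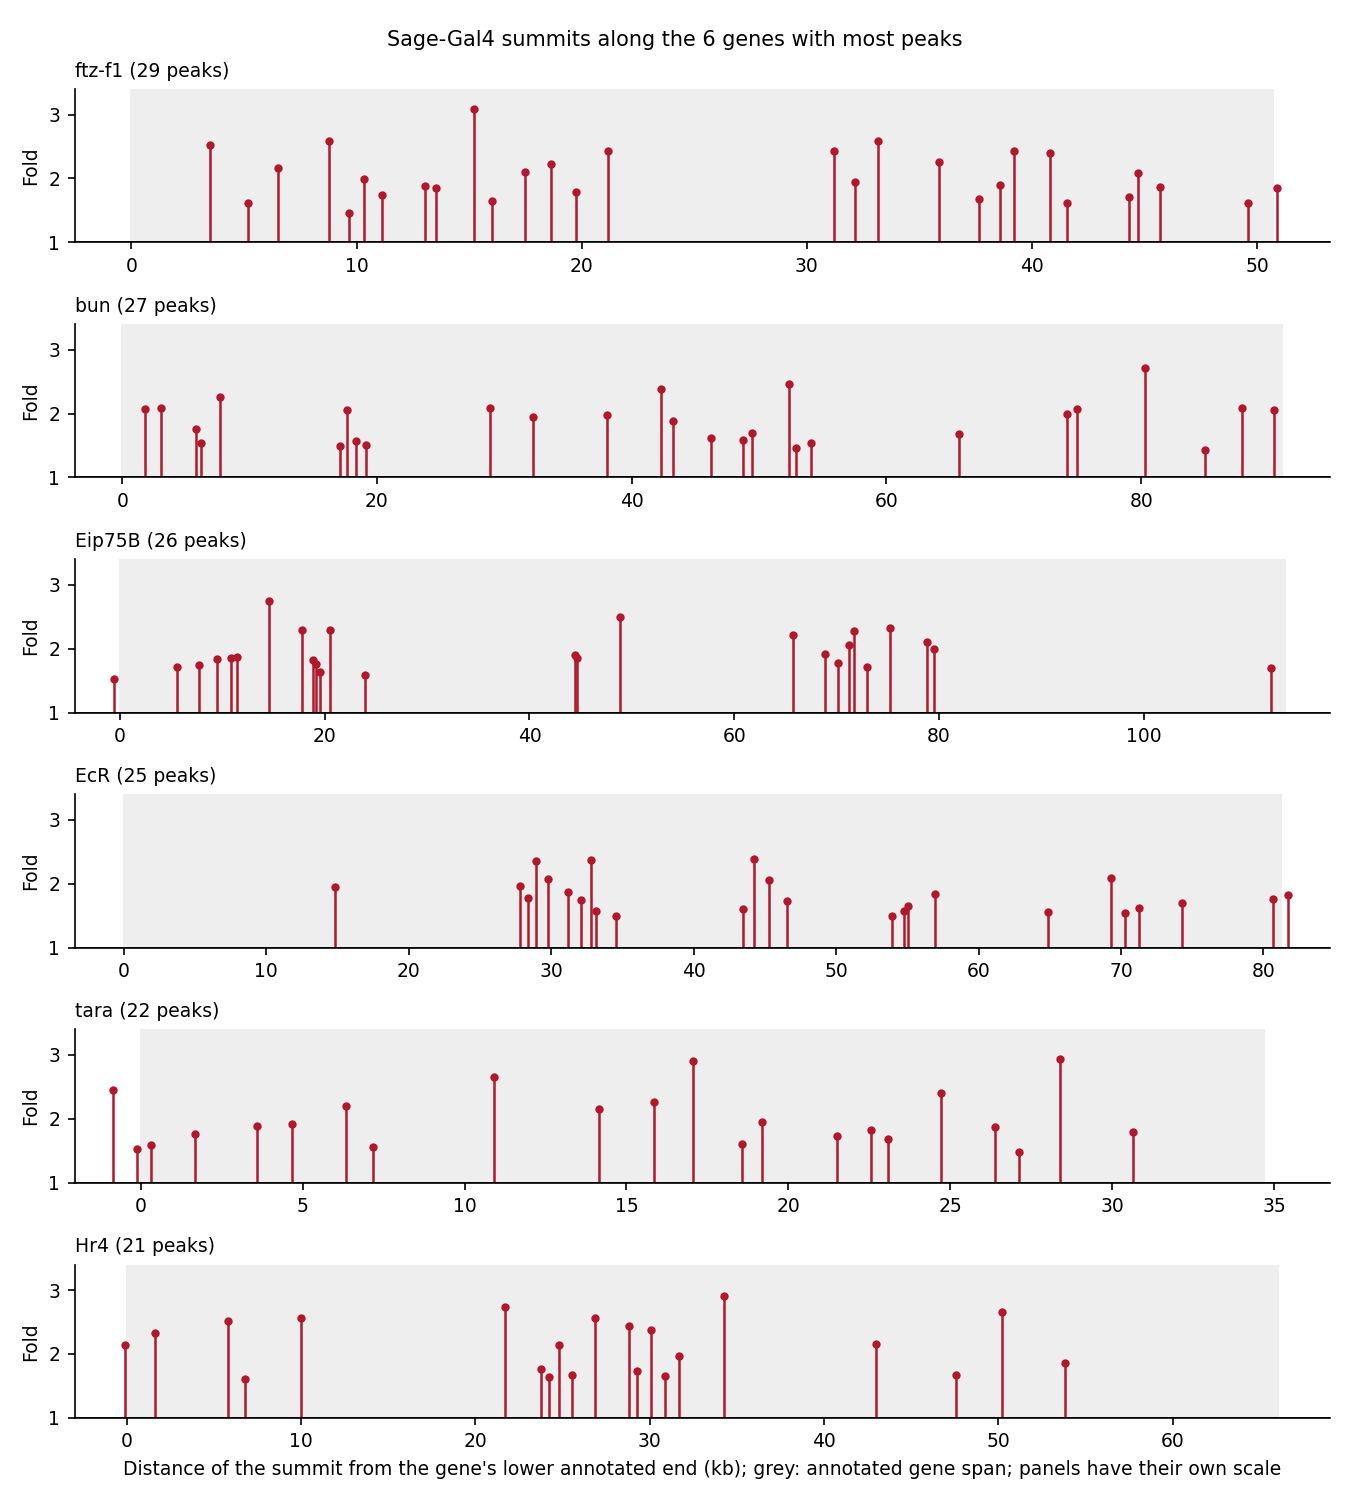
Position of each sage-Gal4 summit (kb from the gene's lower annotated end, horizontal) and its fold (vertical) along the 6 genes with most peaks. In tara the summits are spread over most of the span (grey), and in EcR and Eip75B they stand in groups. In ftz-f1 they lie on both sides of a stretch without summits, from 21189 to 31205 bp.

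**Figure D4:**
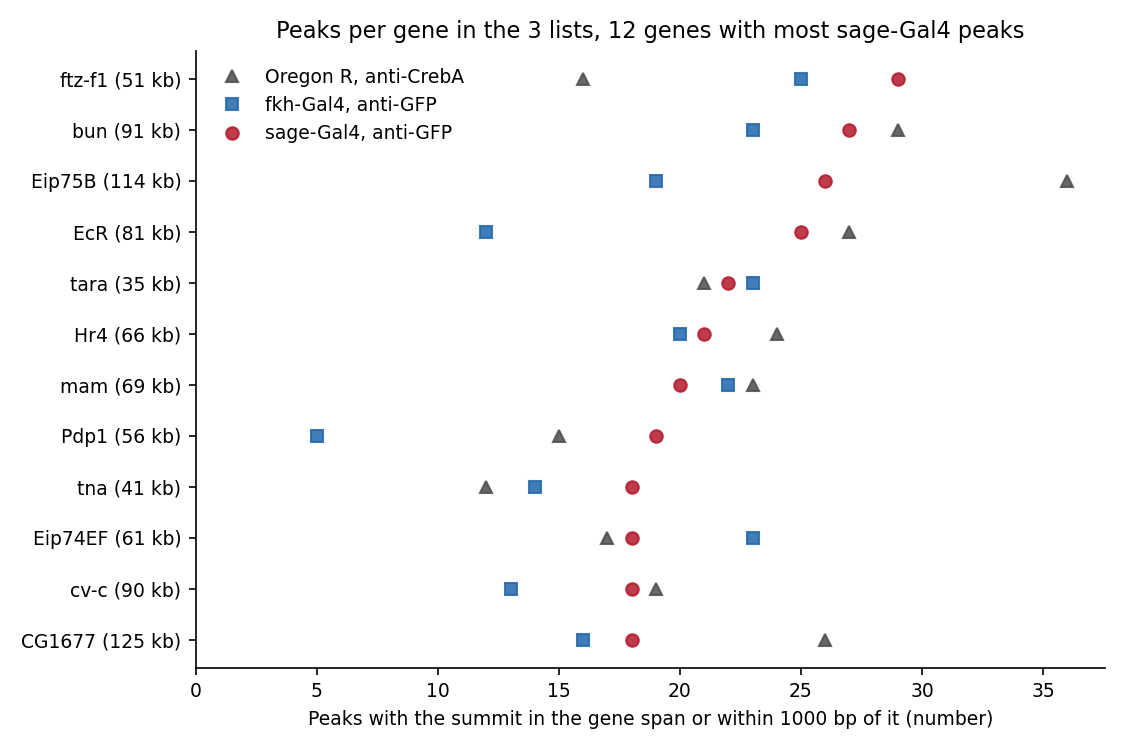
Number of peaks with the summit in the gene span or within 1000 bp of it, in the sage-Gal4 (red), fkh-Gal4 (blue) and Oregon R (grey) lists, for the 12 genes with most sage-Gal4 peaks. The sage-Gal4 count is the highest of the 3 at ftz-f1 (29), Pdp1 (19, or 10 without the run of 9) and tna (18), and at Eip75B the Oregon R count is the highest (36).

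Over the 11 genes of the ecdysone response list the median was 12 sage-Gal4 peaks per gene, against 0 over all protein-coding genes. The same median was 12 for fkh-Gal4 and 16 for Oregon R. Hr3 had 12 peaks over 33.4 kb and Kr-h1, a zinc finger gene that responds to juvenile hormone, 7 over 13.9 kb. br, the Broad gene, had only 2 peaks over 89.7 kb, and usp, which encodes the partner of the ecdysone receptor, 1 peak, with a fold of 2.74. Eip93F had none over 65.4 kb in any of the 3 lists. The median length of the list was 60.7 kb, against 2.16 kb for all genes, and 8 of the 11 genes were over 30 kb. The list was chosen with earlier results of these data known, so its median only describes these 11 genes. Genes of like length were not compared.

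Peaks also formed runs. Of the 7916 peaks 4269 (53.9%) stood within 1000 bp of another peak, in 1635 runs, and 89 runs held at least 5. The longest run, 11 peaks over 17.9 kb on X from 2290874 to 2308817, lay in Raf and CG2865, with folds up to 3.17. A run of 10 peaks over 9.94 kb on X from 6859016 to 6868955 lay in CG14434 and CG43736. Runs of 9 peaks lay in Eip75B (13.4 kb), at Prps and Ubc4 (8.71 kb), which encode a phosphoribosyl pyrophosphate synthetase and a ubiquitin conjugating enzyme, and around the paired ribosomal genes RpS14a and RpS14b (8.62 kb). In the first 2 runs each peak overlapped a peak of both other lists.

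A run in Pdp1 was different in this respect. It held 9 peaks over 5.35 kb, on 3L from 7858375 to 7863727, with folds of 1.62 to 2.02, and none of the 9 overlapped a peak of the fkh-Gal4 or the Oregon R list. It was named after its values were seen, and what makes the run stand apart was not tested. Of runs with at least 3 peaks, the others without any such overlap were 4 peaks in trio (3L from 1030832 to 1032830) and 3 at Cyp6v1 (X from 20655085 to 20657382).

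Bound is used below for a gene with a sage-Gal4 summit no further than 1000 bp from either of its ends. An unbound gene can still hold peaks deeper inside it. By this rule 5427 of 13946 protein-coding genes were bound, or 38.9%, the background for each count below. With the 1000 peaks of highest fold it was 860 genes, or 6.17%. A total of 3650 bound genes had 1 such summit, 1369 had 2 and 408 had 3 or more. Of the 4404 summits at gene ends 2788 (63.3%) were within reach of at least 2 genes, so that a bound gene need not be the one nearest to the summit. Genes with another gene end within 1000 bp were bound at 43.9%, and those without at 18.2%. The share also went up with gene length, from 20.1% of the 3487 shortest genes to 55.5% of the 3487 longest.

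The genes of the secretory pathway were bound at 151 of 180 (83.9%, exact interval 77.7 to 88.9%), and 64 of the 180 (35.6%) lay at the 1000 strongest peaks. Among the lists of other classes that share ran from 0%, as for autophagy, to 38.5%. The highest were salivary gland transcription factors and JAK/STAT and Hippo (each 5 of 13), followed by insulin and TOR (4 of 12, 33.3%). In 9 of the 18 secretory lists every matched gene was bound. The intervals cover counting error over genes only, and the lists were chosen with earlier results of these data known.

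The matched genes of entry into the ER were all bound. All 8 genes of the signal recognition particle and its receptor were bound, led by the receptor subunits SrpRalpha (fold 2.97) and SrpRbeta (2.86) and by Srp68 (2.79) and Srp54k (2.67), the GTPase that reads the signal sequence. For Srp68 the nearest gene end was that of pix. The Sec61 translocon and TRAP list had 9 of 9 matched genes bound (TRAPgamma was not matched), with TRAM, l(1)G0320 (3.07), a TRAP subunit that shared its peak with RpS28b, Tapdelta (2.90) and Trp1 (2.83), the fly Sec62. Signal peptidase and signal peptide peptidase had 5 of 5, with Spp (3.09), twr (2.75), Spase25 (2.47) and Spase22-23 (2.35). At the 1000 strongest peaks were 4, 7 and 3 genes of these lists.

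Glycosylation and folding in the ER were split. All 7 oligosaccharyltransferase genes were bound, with Ostgamma (2.73), the catalytic subunit Stt3A (2.68), OstDelta (2.59) and Ost48 (2.29). Synthesis of the lipid-linked precursor had 9 of 14, from Alg3 (2.82) and Alg2 (2.57) to wol (1.95) and Alg11 (1.76), while xit and Alg9, both glycosyltransferases, had their nearest summit 1544 and 6460 bp away. N-glycan trimming and the calnexin cycle had 6 of 9: the glucosidase genes GCS2beta (2.62) and GCS2alpha (1.95), and Calr (1.78) and Cnx99A (1.76), which encode calreticulin and calnexin. GCS1 and Uggt were unbound. The summit of GCS2beta was nearer to Lamtor3, and no other gene of this list lay at the 1000 strongest peaks. ER chaperones had 7 of 7, with the DnaJ-type CG7872 (3.04), Gp93 (3.03), Grp170 (2.94) and Hsc70-3 (2.56), the BiP gene. Disulfide isomerases and the ER oxidase had 6 of 8, with Pdi (2.92), wbl (2.79), ERp60 (2.34) and CaBP1 (2.31) bound and Tmx3 and CG10029 unbound.

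The p24 and COPII lists had the highest shares at the 1000 strongest peaks among the 59 lists. COPII and ER exit had 11 of 11 matched genes bound and 9 at the 1000 strongest peaks (81.8%), among them the coat subunits Sec31 (2.68) and Sec24AB (2.60), Tango1 (2.66), an exporter of bulky cargo, and the lectin receptor ergic53 (2.62). All 7 p24 cargo receptor genes were bound, 6 at the strongest peaks (85.7%), with p24-1 (3.11), bai (2.78), p24-2 (2.64) and eca (2.61). COPI and retrieval had 12 of 12, 7 of them at the strongest peaks, with deltaCOP (3.404), garz (3.05), an Arf exchange factor, ArfGAP1 (2.98) and gammaCOP (2.86).

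Golgi tethering and fusion lists had 1 or 2 genes each at the 1000 strongest peaks. These were shares of 10% to 25%, against 6.17% of all genes. The COG complex had 7 of 8 bound, with fws (2.62), Cog8 (2.38), Cog2 (2.32) and Cog3 (2.26), and Cog6 was unbound. The peak of fws was the same as that of GCS2beta, and Cog3 shared its peak with the exocyst gene Sec5. Golgins had 9 of 10, with GM130 (2.96), Gmap (2.34), p115 (2.20) and Grasp65 (2.17), and GCC88 was unbound. Of the 10 golgin genes, 1 lay at the 1000 strongest peaks. The ER and Golgi SNAREs had 11 of 12, with Sec22 (2.86), Syx5 (2.62), Membrin (2.29) and Bet1 (2.28), and Vti1a was unbound. The TRAPP tethering complex had 5 of 10, with gry (2.49), SIDL (2.14), l(3)76BDm (1.66) and Trs20 (1.63), and Bet3 and Bet5 lay 4950 and 8498 bp from the nearest summit. With the nearest gene only, 2 of 10 TRAPP genes were bound (20%), below the 26.8% of all genes.

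Enzymes of cargo modification followed. Sulfation and nucleotide sugar transport had 11 of 11, with Ugalt (3.69), pip (3.07), a sulfotransferase gene, Tpst (2.53), the tyrosylprotein sulfotransferase gene, and senju (2.39), a nucleotide sugar transporter gene. Mucin-type O-glycosylation had 6 of 11, with the transferases Pgant7 (2.57), Pgant6 (2.52) and Pgant5 (2.47) and the core galactosyltransferase C1GalTA (2.06), and Pgant2 and Pgant4 were unbound. GPI anchor synthesis had 15 of 21, with PIG-L (3.22), PIG-K (2.65), PIG-F (2.42) and PIG-Wb (2.21), and PIG-Wa and PIG-X unbound. In 8 of the 15 the gene was itself nearest to a summit.

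**Figure D5:**
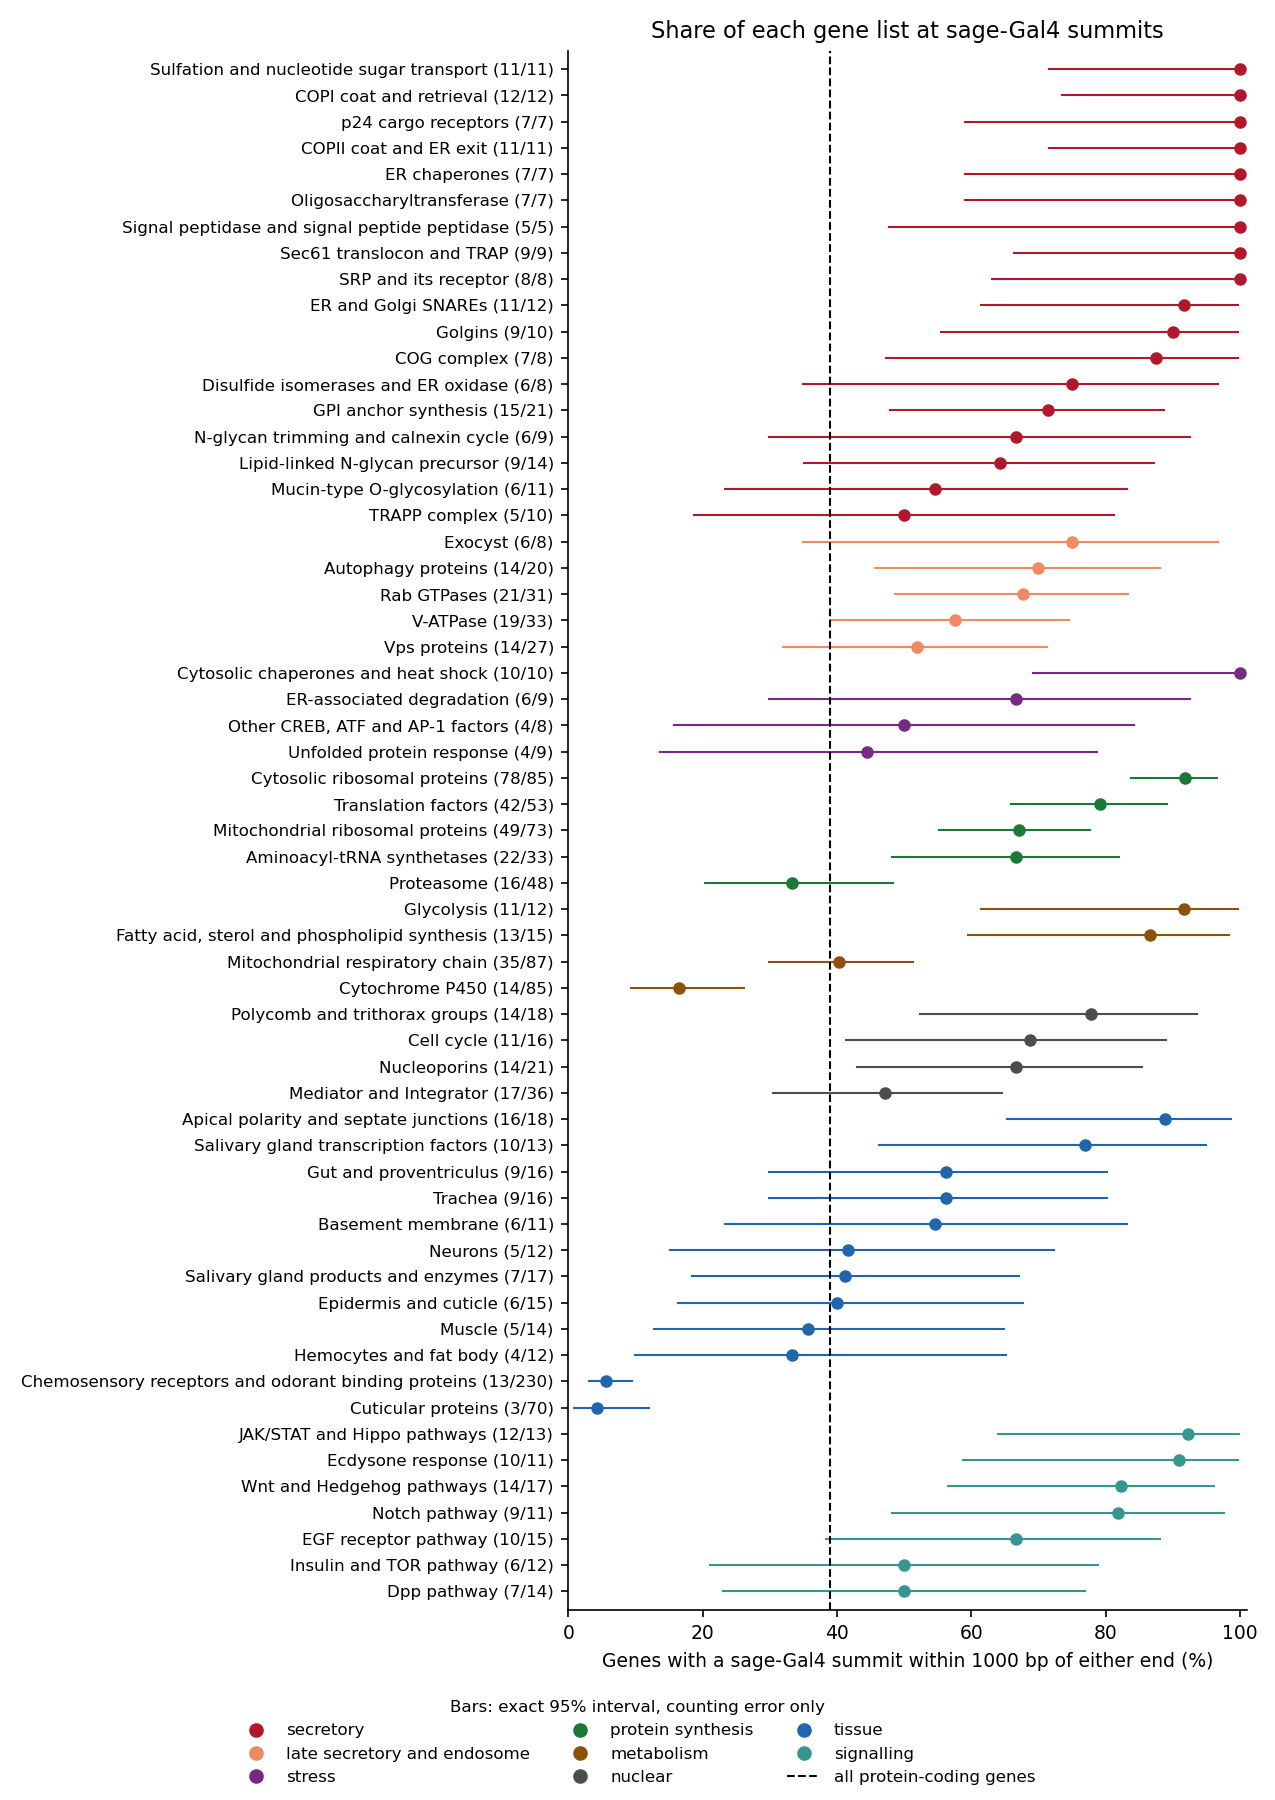
Share (%) of the genes of each list with a sage-Gal4 summit within 1000 bp of either end, with exact 95% intervals for counting error; the dashed line is the 38.9% of all protein-coding genes and colours mark the classes of lists. Secretory lists run from 50% to 100%, and the chemosensory (5.65%) and cuticular protein (4.29%) lists lie far below the line.

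Later steps of trafficking had 74 of 119 genes bound (62.2%). The exocyst had 6 of 8 genes bound (Sec5 at 2.26, Sec8 at 2.12, Sec3 at 1.95, Sec6 at 1.76), of which 2 were nearest to a summit and none lay at the 1000 strongest peaks, and Sec10 and Exo70 were unbound. V-ATPase subunits had 19 of 33 (57.6%), with Vha68-2 (2.45), VhaAC39-1 (2.44), VhaAC39-2 (2.37) and Vha44 (2.27), a share of 6.06% at the 1000 strongest peaks, and Vha16-5 and Vha100-5 unbound. Rab GTPases and their regulators had 21 of 31 (67.7%), with Rab18 (2.79), Rab2 (2.60), Rab30 (2.48) and Rab6 (2.38), and Rab9 and Rab3 unbound. The summit of Rab18 was nearer to RpL35, and those of Rab2 and Rab30 were also nearer to other genes. Vps genes had 14 of 27 (51.9%), led by Vps13 (2.89), Vps26 (2.39), Vps13B (2.36) and Vps33B (2.09), with Vps29 and Vps53 unbound, and 4 of 27 (14.8%) with the nearest gene only. Autophagy genes had 14 of 20 (70%), from Atg2 (2.15), Atg18a (2.06), Atg4b and Atg1 (each 1.97) downwards, and with a −log10 q of at least 10 there were 0 of 20, where 10.2% of all genes were bound. Atg10 and Atg9 were unbound.

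Stress genes were bound at 24 of 36 (66.7%). In the unfolded protein response list 4 of 9 genes were bound (44.4%): Xbp1 (2.71), crc (2.46), the ATF4 gene, whose summit was nearer to Mondo, and the sensors Ire1 (1.89) and PEK (1.73). Atf6 had its nearest summit 17800 bp away, and PPP1R15 was also unbound. ER-associated degradation had 6 of 9, with Herp (2.38), Edem1 (2.36), Hrd3 (2.31) and Edem2 (2.096), and Der-2 and TER94 unbound. Among other CREB, ATF and AP-1 genes, 4 of 8 were bound. CrebB stood far above REPTOR (1.98), Irbp18 (1.59) and Jra (1.503), and kay, with 5 peaks inside the gene, and Atf3 were unbound at their ends. All 10 matched genes of cytosolic chaperones and heat shock were bound, led by Hsp83 (2.46), DnaJ-1 (2.30), Hsp22 (2.24) and Hsc70-4 (2.22), and 1 of the 10 lay at the 1000 strongest peaks.

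Genes of protein synthesis were bound at 207 of 292 (70.9%). Cytosolic ribosomal proteins had 78 of 85 bound (91.8%, exact interval 83.8 to 96.6%), and 14 (16.5%) at the 1000 strongest peaks. The highest were RpS28b (3.07), RpS20 (2.92), RpS19a (2.83) and RpL35 (2.79), and in the first 3 of these another gene was nearer to the summit. RpS2 and RpS27A were unbound. Translation factors had 42 of 53 (79.2%), among them eIF2Bbeta, eIF4H1 (2.61), eIF3b (2.58) and eIF2alpha (2.56), and eIF3f2 and eIF4E4 were unbound. Aminoacyl-tRNA synthetases had 22 of 33 (66.7%), with ArgRS (2.68), SerRS (2.66), LysRS (2.57) and HisRS (2.56). AspRS-m and AspRS were unbound, the latter with 1 peak inside the gene. Mitochondrial ribosomal proteins had 49 of 73 (67.1%), with mRpL17 (3.04), where Tudor-SN was nearer, mRpS26 (2.70), mRpS35 (2.52) and mRpS10 (2.42). In 22 of those 49 the gene was itself nearest to a summit, mRpL10 and mRpL51 were unbound, and at the 1000 strongest peaks the share was 5.48%, below the 6.17% of all genes. Proteasome genes had 16 of 48 (33.3%), with Rpt4 (2.53), Rpn9 (2.20), Prosbeta2R2 (2.14) and Rpt3 (2.01), and Prosbeta4R1 and Prosbeta4R2, related to a core subunit, unbound. For Rpt4, Prosbeta2R2 and Rpt3 another gene was nearer to the summit. With a window of 2000 bp the proteasome share was 47.9%, against 46.0% of all genes.

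In metabolism, glycolysis stood out with 11 of 12 genes bound (91.7%): Hex-A, the hexokinase gene (2.78), Gapdh2 (2.50), Pfk (2.34) and Pgk (2.29) led, and Gapdh1 was unbound. Lipid synthesis had 13 of 15 (86.7%), with bbc (2.46), an enzyme gene of phospholipid synthesis, ATPCL (2.26) and FASN1 (2.15), the fatty acid synthase gene. ACC and eas had 4 and 3 peaks inside the gene but none at an end. The respiratory chain had 35 of 87 (40.2%), close to the share of all genes, with ATPsyngamma (2.68), ATPsynD (2.65), ATPsynG (2.41) and SdhC (2.25), each at a summit nearer to another gene. Unbound were COX7AL2, with 2 peaks inside the gene, and ND-B17.2. At a −log10 q of at least 10 the respiratory chain share was 6.90%, below the 10.2% of all genes. Cytochrome P450 genes had 14 of 85 (16.5%), of which 7 were nearest to a summit. Cyp4g15 was highest (2.95), followed by Cyp6a22 (2.27), Cyp4d1 (2.24) and Cyp6v1 (2.21), and Cyp309a1 and Cyp309a2 were unbound.

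Nuclear lists ranged widely. Polycomb and trithorax groups had 14 of 18 bound (77.8%), with the paired ph-d (2.93) and ph-p (2.91), brm (2.77), the remodeller ATPase gene, and Psc (2.52), and Sce and Scm unbound. Cell cycle genes had 11 of 16, with fzr (2.57), which drives endocycles, Rbf (2.54), CycA (2.45) and CycB (2.33), and Cdk1 and Cdk2 unbound. Nucleoporins had 14 of 21, from Nup153 and Nup358 (each 2.55), Nup154 (2.42) and Nup93-1 (2.13) downwards, with Nup107 and Nup54 unbound. For Nup358, Nup154 and Nup93-1 another gene was nearer to the summit. Mediator and Integrator had 17 of 36 (47.2%), led by IntS6 (3.13), MED15 (2.40), MED8 (2.32) and MED25 (2.22), with IntS14 and IntS3 unbound. The summits of MED15, MED8 and MED25 were nearer to other genes. At the 1000 strongest peaks the share of Mediator and Integrator was 5.56%, below that of all genes.

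Salivary gland regulators had 10 of 13 genes bound (76.9%, exact interval 46.2 to 94.96%), and 5 of the 13 lay at the 1000 strongest peaks. The forkhead gene fkh came first (2.81), followed by bowl (2.74), Xbp1 and CrebA (2.51), and hkb and hth were unbound, the latter with 7 peaks elsewhere in the gene. Products and enzymes of the gland had 7 of 17 (41.2%), with pip, sano (2.81), nur (2.30) and fog (2.21). PH4alphaSG1, a prolyl hydroxylase gene, had no summit within 13668 bp of an end, and ps, with 10 peaks inside, none at an end.

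The constructs can carry sequences of fkh, sage or CrebA, and from a peak list a construct and the native gene cannot be told apart. At CrebA the highest of 4 sage-Gal4 peaks, 3L from 15548346 to 15550037, had a fold of 2.70, and it stood over nearly the same place as the highest of 6 fkh-Gal4 peaks (2.34). The highest of 5 Oregon R peaks there, with a fold of 1.91, lay elsewhere in the gene. At fkh a single sage-Gal4 peak, 3R from 28584275 to 28586349, had a fold of 2.81, and an fkh-Gal4 peak (1.91) and an Oregon R peak (2.60) overlay it. At sage 1 sage-Gal4 peak, 1177 bp wide on 3R from 9263377 to 9264553, had a fold of 2.02, fkh-Gal4 had 2 peaks, and Oregon R had none.

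Genes of other tissues that the embryo or the driver could hold were bound near the share of all genes or moderately above it. Trachea and gut each had 9 of 16 bound (56.2%), with ttk (2.86), bnl, an FGF gene (2.70), rib (2.45) and tgo (2.29) in the first, and bowl, Ptx1 (2.31), odd (1.97) and dve (1.94), a gene of the proventriculus, in the second. The tracheal genes trh, with 1 peak inside the gene, and btl and the gut genes GATAe and hkb were unbound. At a −log10 q of at least 10 the gut share was 6.25%, below that of all genes. Epidermis had 6 of 15 (rtv at 2.58, grh at 2.45, ple at 1.88, ovo at 1.78, but not Ddc or sha), which was 20% with a window of 500 bp, where all genes had 31.4%. Neurons had 5 of 12 (elav at 2.39, Appl at 2.21, nrv3 and Syx1A at 1.88 and 1.87, but not nSyb or Syt1), and 25% with that window. Muscle had 5 of 14 (Mlc2 at 2.81, Mef2 at 2.45, tin and how at 2.05 and 2.02, but not Mhc or Mlc1), a share of 35.7%. The muscle share was also 35.7% with 500 bp, above the 31.4% of all genes. At the 1000 strongest peaks it was 2 of 14 (14.3%), against 6.17% of all genes. The 2 were Mlc2, whose summit was nearer to Rsod, and Mef2. Hemocytes and fat body had 4 of 12 (crq at 2.27, lz at 2.24, srp at 1.58, Lsp1beta at 1.54, but not Hml or NimC1), and 33.3% both with 1000 and with 500 bp.

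Epithelial genes were of several kinds. Apical polarity and septate junctions had 16 of 18 (88.9%), with shg, the E-cadherin gene (2.62), cora (2.46), arm, the beta-catenin gene (2.41), and scrib (2.39). Unbound were dlg1, with 2 peaks inside the gene, and kune. Basement membrane genes had 6 of 11, the laminin genes LanB1 (2.31), LanA (2.22) and LanB2 (2.03) and Ndg (2.14) among them, while the collagen IV genes vkg and Col4a1 were unbound and none of the 11 lay at the 1000 strongest peaks. At the other end, cuticular proteins had 3 of 70 (4.29%, exact interval 0.893 to 12.02%), Cpr73D (2.13), Cpr49Aa (1.77) and Cpr23B (1.64), with Cpr30B and Cpr30F among the unbound. Chemosensory receptors and odorant binding proteins had 13 of 230 (5.65%, 3.04 to 9.47%), of which 1 was nearest to a summit. That gene was Obp99b, at a fold of 3.17 and rank 29 of the sage-Gal4 list, 220 bp from its end. The next, Ir60b, Gr5a and Or88a, had folds of 2.24 to 2.33 at summits nearer to Letm1, Tre1 and CG12402, and Gr21a and Or22a were unbound.

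Signalling lists were bound at 50% or more each. JAK/STAT and Hippo had 12 of 13 (92.3%), with dome, the JAK/STAT receptor gene (2.89), mats (2.74), Socs36E (2.52) and ds (2.48), and the ligand gene upd1 unbound. With a window of 500 bp it was 8 of 13 (61.5%), where all genes had 31.4%. Ecdysone response had 10 of 11 bound at the ends (90.9%), usp (2.74), Hr39 (2.27), Hr4 (2.14) and Kr-h1 (2.05) highest, and 1 of the 11 lay at the 1000 strongest peaks by this rule. The summit of usp was 877 bp from its end and nearer to another gene. With a window of 500 bp 6 of the 11 (54.5%) were bound. Wnt and Hedgehog had 14 of 17 (82.4%), with fz (2.46), arm, ptc (2.40) and sgg (2.25). Wnt5 and fz2 were unbound, the latter with 7 peaks inside the gene. Notch had 9 of 11, with kuz (2.66), H (2.58), fng (2.54) and neur (2.29), and Su(H) and E(spl)m8-HLH unbound. These summits of kuz and neur were nearer to B4 and tgo.

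The EGF receptor pathway had 10 of 15 (66.7%). Its adaptor gene drk (2.66) and its inhibitor aos (2.40) were highest, followed by rho (2.12) and Raf (2.05 at its end), and the ligand genes spi and vn were unbound with 2 peaks each elsewhere in or near the gene. Insulin and TOR had 6 of 12, with Thor, the 4E-BP gene (2.81), Akt (2.62), S6k (2.58) and foxo (2.48), and chico unbound. Dpp had 7 of 14, with the antagonist gene sog (2.24), Dad (2.20), Med (2.19) and wit (1.96). Unbound were dpp, with 3 peaks inside the gene, and scw. The Dpp list also holds brk and shn, unbound at their ends, although shn had 16 peaks inside it. None of the 14 lay at the 1000 strongest peaks by the gene-end rule.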

How the data were processed

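ChIP-seq of 3 immunoprecipitated libraries and their inputs was analysed from peak lists that the authors deposited. Per the submitters' processing notes, the tools were BWA and MACS2 2.1.0.20140616 and the build dm6; their settings were not stated. The deposited lists hold an integer score by the authors' caller (not used), fold enrichment (a ratio over local background), −log10 p and −log10 q, and the summit offset in bp, an other unit. The lowest −log10 q of the sage-Gal4 list was 1.31. No read counts are given, so depth and its precision are unknown.

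Genes came from an NCBI RefSeq table of release 6 (the dm6 assembly), which has no strand: 13946 protein-coding genes on 7 arms (2L, 2R, 3L, 3R, 4, X, Y). The 59 gene lists, 18 of them secretory, held 10 unmatched symbols in 9 lists, which are not counted as members. Members, lists and naming rule were chosen with earlier results of these data known. Named were the 15 strongest and 10 widest peaks, the best peak of each arm, the 12 genes with most peaks, the 5 largest runs (peaks under 1000 bp apart), up to 4 bound genes of highest fold and 2 unbound genes of each list, and CrebA, fkh and sage; 2 genes under this rule are not reported here. No test between conditions was made, since each group has 1 library. Intervals are exact Clopper-Pearson at 95%. Alternatives were other windows (500, 2000 bp), the gene span, the nearest gene only, the peaks with −log10 q of 10 or more, the first 1000 peaks by fold, other overlaps and other rankings. The planned start-site window and promoter motif search need strand or sequence and were not run. Tools were scipy 1.17.1, pandas 2.3.3, numpy 2.4.6 and, for plots, matplotlib 3.10.9 (Python 3.11.15). The gene-end code was tested on simulated data, where 200 of 200 planted summits over 13946 genes were recovered.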

Additional observations from a re-analysis of the deposited data

How the results depend on the processing

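Windows of 500 and 2000 bp, the gene span and the nearest gene only kept the count of bound genes within 1.5 times of 5427 (3735 to 6414). A −log10 q of at least 10 left 1425 and the 1000 strongest peaks 860, with 89 and 64 of the 180 secretory genes. Above the share of all genes were 53 of 59 lists, 46 to 53 under the alternatives, and 40 of the 53 stayed above under each of the 6. The share of summits at gene ends was 45.4% with 500 bp, 64.8% with 2000 bp, 57.5% at a −log10 q of at least 10 and 53.8% for the 1000 strongest peaks. Overlap with fkh-Gal4 peaks was 37.9% reciprocally at 50%, 44.5% with summits within 150 bp, 95.3% at a −log10 q of at least 10, and 51.2% with that limit in both lists; for Oregon R these were 34.6%, 47.7%, 96.2% and 79.5%. Rankings by −log10 q or p shared 11 of the 15 strongest peaks. Merging peaks closer than 500 bp left 4 of the 10 widest. Of the 12 genes with most peaks, 6 stayed at a −log10 q of at least 10, 0 by peaks per 10 kb, and 11 without the runs that overlap neither other list (Pdp1 left the 12; chosen after seeing the data). The rho of fold and width, at a −log10 q of at least 10, was 0.14, an alternative chosen after seeing the data. No paired analysis was possible because each group has 1 library.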

Other observations

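Genes of RNAs that do not code for protein differed widely in how often a sage-Gal4 summit lay within 1000 bp of either end. Transfer RNA genes had 147 of 290 (50.7%), and at 86 of these the summit was not within 1000 bp of a protein-coding gene end. Small nucleolar RNA genes had 86 of 269 (32.0%), 74 of which shared the summit with a protein-coding gene end. For microRNA genes it was 36 of 260 (13.8%), for long noncoding RNA genes 350 of 1995 (17.5%) and for antisense RNA genes 183 of 503 (36.4%). Neighbouring tRNA genes can share 1 summit.

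The genes with most peaks for their length, among those with at least 5, were short. They were chosen after their values were seen. CG9117 had 5 peaks in and around 0.906 kb, with 2 fkh-Gal4 and 1 Oregon R peaks. Prx5, a peroxiredoxin gene, and CG7215, which the table gives the same coordinates, had 6 sage-Gal4, 6 fkh-Gal4 and 0 Oregon R summits in or within 1000 bp of the span, although the 9 sage-Gal4 peaks of the run that holds them all overlapped an Oregon R peak. corto, a chromatin factor gene, had 11 peaks over 9.29 kb (10 and 6).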
